A study of Mus musculus with 24 samples.

Results

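The genes described are 35 genes of blood vessels, pericytes and smooth muscle, out of 35275 genes in the deposited expression table. They were chosen by symbol for their known roles, with earlier results of these data known. They are 18 endothelial genes of the vessel lining, 11 mural genes of the pericytes and smooth muscle cells that wrap it, and 6 secreted growth factors that act on either. RNA was sequenced from the gonadal and the inguinal white fat pads of conditional adipose FoxO1 knockout mice and of floxed FoxO1 mice without the deletion, which were the controls. The series set out to learn what FoxO1, a transcription factor restrained by insulin signalling, regulates in fat. The library names gave 3 knockout mice (M5, M9 and M12) and 3 control mice (M6, M7 and M10), each with both pads and 2 libraries per pad. Not given in the sources used here are the Cre driver, the deleted exons, and the sex, age, strain and diet of the mice. Without the driver, it is not known whether the gene stayed intact in other cells of a pad, among them the vessel cells described. The mouse was the replicate (n = 3 per group), its 2 libraries in a pad being averaged, and levels are given in FPKM, a measure that divides the reads of a gene by its length and by the size of the library. Values of single mice are listed in the order M6, M7 and M10 for controls and M5, M9 and M12 for knockouts. Nothing in the labels says whether the 2 libraries are repeat preparations or separate pieces of a pad.

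White fat is laced with capillaries, and nearly every adipocyte touches one. Endothelial cells are held together by junction proteins such as VE-cadherin and claudin-5 and respond to growth factors of the VEGF family through Kdr, Flt1 and, in lymphatic vessels, Flt4. Pericytes are drawn to capillaries by PDGF-B, and arteries and veins carry a coat of contractile smooth muscle; Angpt1 and Angpt2 act on the receptor Tek and set how quiescent the lining is.

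The upstream sequences of 4 members are printed because the results turn on them: Acta2, which was lower without overlap in the knockout pads of both depots, and the 3 VEGF genes, of which Vegfc differed between pads in the opposite direction to Vegfa and Vegfb. Each is the 250 bases before a start, 5′ to 3′ on the gene's strand, from RefSeq (GRCm38.p6): Acta2 at chr19:34255374-34255623, Vegfa at chr17:46032378-46032627 (the other of its starts in the table is not shown) and Vegfb at chr19:6987652-6987901 on the minus strand, and Vegfc at chr8:54077282-54077531 on the plus strand. Capitals mark, in the VEGF genes, the GC box (GGGCGG on either strand) and, in Acta2, the CArG box of serum response factor in a relaxed form, in which 6 bases between a CC and a GG hold 5 that are A or T.
Acta2: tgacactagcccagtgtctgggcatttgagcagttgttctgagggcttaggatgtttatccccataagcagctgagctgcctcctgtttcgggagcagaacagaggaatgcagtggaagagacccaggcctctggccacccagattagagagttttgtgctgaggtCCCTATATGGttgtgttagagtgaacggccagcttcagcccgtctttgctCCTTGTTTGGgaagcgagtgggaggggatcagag
Vegfa: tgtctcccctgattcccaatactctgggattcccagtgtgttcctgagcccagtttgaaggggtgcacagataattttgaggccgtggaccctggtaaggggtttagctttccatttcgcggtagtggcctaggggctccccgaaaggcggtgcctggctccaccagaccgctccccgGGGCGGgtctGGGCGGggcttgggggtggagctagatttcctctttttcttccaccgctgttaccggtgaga
Vegfb: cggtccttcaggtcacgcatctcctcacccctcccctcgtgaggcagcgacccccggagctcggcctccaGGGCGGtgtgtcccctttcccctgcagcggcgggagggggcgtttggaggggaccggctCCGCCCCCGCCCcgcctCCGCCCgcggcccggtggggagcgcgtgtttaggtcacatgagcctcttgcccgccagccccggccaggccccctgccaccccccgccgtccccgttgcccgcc
Vegfc: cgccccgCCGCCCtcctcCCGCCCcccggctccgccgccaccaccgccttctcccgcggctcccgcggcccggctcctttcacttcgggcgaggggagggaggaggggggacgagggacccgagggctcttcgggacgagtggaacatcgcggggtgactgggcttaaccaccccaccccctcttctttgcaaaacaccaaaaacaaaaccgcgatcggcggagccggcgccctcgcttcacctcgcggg

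The Acta2 promoter held 2 relaxed CArG boxes, beginning 84 and 34 bases before the RefSeq start. In the deposited expression table Acta2 begins further downstream, at chr19:34255336, so these distances hold for the RefSeq start only. RefSeq windows of 300 bases, reaching 50 bases past the start, were at hand for 22 of the 35 members (26 windows). A relaxed CArG box occurred in 5 of those 26 windows, in Acta2, Egfl7, Eng, Kdr and Tek, against 8.5% of 32851 windows of all genes. A strict CArG box (CC, 6 bases of A or T, GG) occurred in 0 of the 26 and in 1.63% of all windows, and the FoxO element GTAAACA, read on both strands, in 0 of the 26 and in 3.65%. GC boxes, also read on both strands, were in 15 of the 26 windows and in 35.7% of all. The GC content of the whole window was 62.0% for Vegfa, 75.3% for Vegfb and 70.3% for Vegfc. A TATA box (TATAAA on either strand), which was also searched though not planned, was in 2 of the 26 windows and in 13.6% of all. The relaxed CArG box and the GC box were added only after the strict motifs gave no match. Motifs that overlap one another were counted separately, and a match is a description of these letters only.

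Between 14953657 and 25438811 reads were assigned to genes per library. Foxo1 levels of knockout and control pads did not overlap, the knockouts being lower in both depots. Gonadal pads held 13.6, 7.87 and 9.53 FPKM in M6, M7 and M10 and 4.07, 4.46 and 4.01 FPKM in M5, M9 and M12 (log2 difference -1.18, SE 0.19, limma adjusted p = 0.407), and inguinal pads 19.7, 13.0 and 14.5 against 4.12, 2.49 and 5.69 FPKM (log2 difference -1.86, SE 0.29, limma adjusted p = 0.129). Genes of the male reproductive tract were present in 3 gonadal pads: the summed level of 26 such genes was 714 FPKM in M6, 4571 FPKM in M10 and 9403 FPKM in M12, against 1.25 to 3.07 FPKM in M5, M9 and M7. In inguinal fat, skeletal muscle genes (18 listed) summed to 63.1 to 468 FPKM in knockout and 154 to 928 FPKM in control pads, and B cell genes (10 matched) to 76.1 to 599 and 40.9 to 611 FPKM. M6 had the highest inguinal level for 46.8% of the 13621 genes tested there. Values of these lists stand beside the members they move with.

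Of the 18 vessel lining genes, all but Prox1 passed the filter on low values, a mean of at least 0.5 FPKM over the pads compared, in both depots. Pecam1, a junctional adhesion molecule that marks endothelium, stood at 55.6, 37.9 and 49.4 FPKM in the gonadal pads of M6, M7 and M10 and at 32.4, 51.7 and 38.3 FPKM in those of M5, M9 and M12. In inguinal fat its levels were 56.6, 47.7 and 50.4 FPKM and 35.9, 52.9 and 54.4 FPKM in the same order of mice, and control and knockout values overlapped in both pads. Cldn5, the tight junction protein claudin-5, had one of the highest levels, with 65.1, 48.4 and 72.1 FPKM in control and 47.2, 84.3 and 69.3 FPKM in knockout gonadal pads. Plvap, which forms the diaphragms of fenestrae and caveolae, reached a similar range, 64.6 ± 7.82 FPKM (SD, n = 3) in control gonadal fat. At the low end were Sox17, an arterial transcription factor (3.96 ± 1.24 FPKM), and Prox1, the transcription factor of lymphatic identity (1.82 ± 0.578 FPKM). In whole pads, fewer cells of a type and less RNA per cell cannot be told apart.

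The lining genes varied together between mice of one genotype. In gonadal fat the knockout mouse M5 had the lowest of the 6 values for 12 of the 18 endothelial genes, against 13.6% of all 14851 genes tested, and in inguinal fat for 15 of the 17 tested, against 12.1% of 13621 genes. The knockout mouse M9, by contrast, had the highest value for 8 of 18 in gonadal fat (12.5% of all genes) and for 7 of 17 in inguinal fat (8.08%). The control M6 was highest for 8 of 18 in gonadal fat (21.3% of all genes) and for 6 of 17 in inguinal fat (46.8%). Cdh5, VE-cadherin, showed this spread within a genotype: 24.3, 43.9 and 32.1 FPKM in M5, M9 and M12 in gonadal fat and 34.9, 62.1 and 46.5 FPKM in inguinal fat, while the controls held 37.5, 25.4 and 37.8 and 41.1, 48.8 and 42.7 FPKM. Among 41 further endothelial markers, such as Erg, Nos3 and Cd34, M5 was lowest for 16 of 39 tested in gonadal and 32 of 37 tested in inguinal fat, and M9 highest for 17 and 13. The 18 lining genes summed to 293 to 472 FPKM in knockout and 326 to 447 FPKM in control gonadal pads, and to 277 to 424 FPKM and 380 to 389 FPKM in inguinal pads. The 2 libraries of a pad differed far less than the mice did: the median SD over members was 0.0544 on the log2 scale between libraries and 0.2925 between mice of a group.

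**Figure D1:**
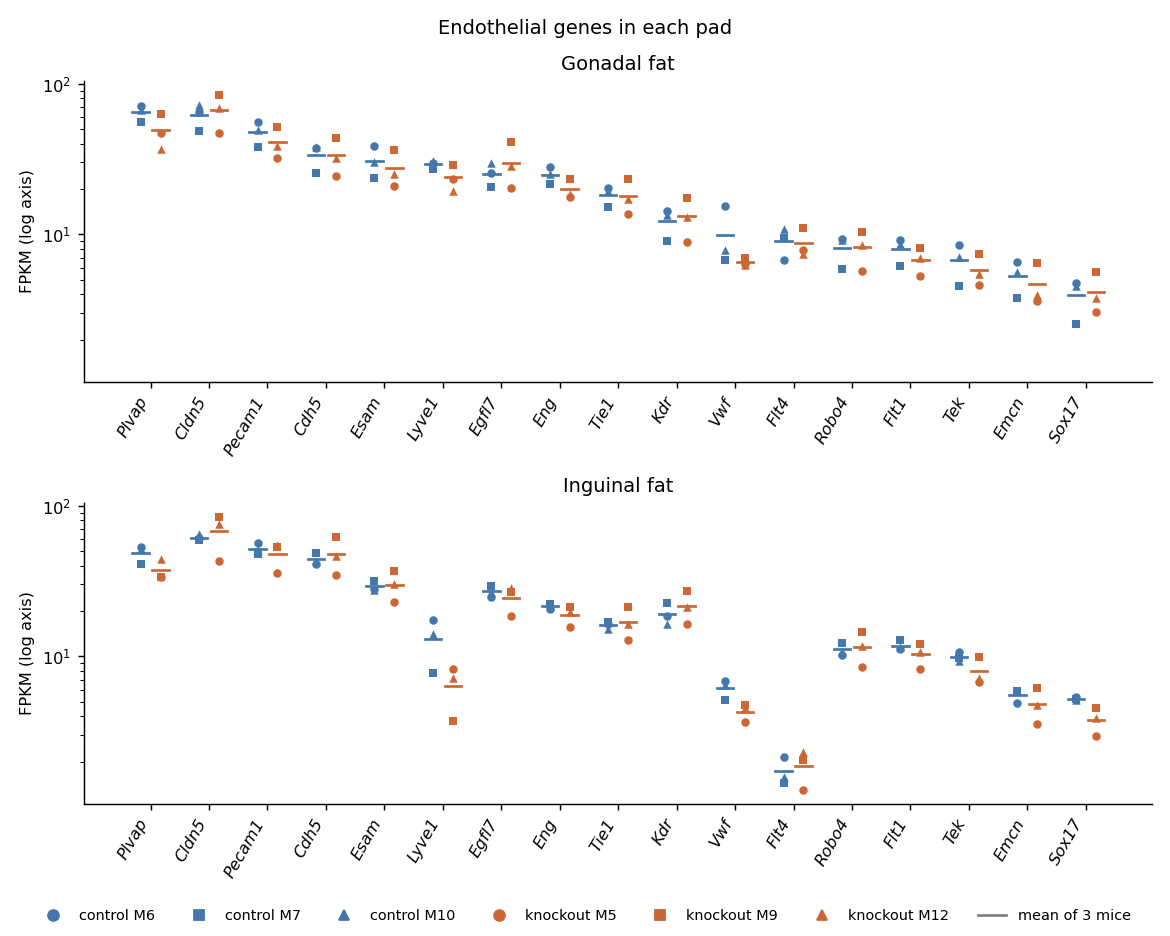
FPKM (log axis) of 17 endothelial genes in each gonadal and inguinal pad, ordered by control gonadal level; points are mice, marked by shape within a genotype colour, and short bars the mean of 3 mice. The lowest member, Prox1, is left out for scale. Within knockout mice, M5 (circles) lies low and M9 (squares) high for most genes, while Flt4 and Lyve1 drop most from the gonadal to the inguinal panel.

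Lining genes did not pass the threshold between knockout and control mice in either pad. In gonadal fat, limma (adjusted p under 0.05 over all genes) called 0 of the 18 endothelial genes and 0 of all 14851 genes (0% called). At an unadjusted p under 0.05 the 18 gave 0 and all genes 8.69%. Their median log2 difference was -0.15, against -0.02 for all genes tested, and 13 of the 18 were below 0. Across all 34 members tested in gonadal fat, 0 were called by limma and by edgeR (0% of all genes), 1 by DESeq2 (Acta2; 2.09% of all genes) and 3 had an unadjusted p under 0.05. In inguinal fat, limma called 0 of the 17 tested, against 3 of 13621 genes (0.022%), and 4 of the 17 had an unadjusted p under 0.05, against 14.9% of all genes. The median was -0.16 for the 17 and -0.10 for all genes, and -0.05 and -0.02 with edgeR's scaling.

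The 4 were Vwf, Lyve1, Plvap and Sox17, all with lower mean levels in knockout inguinal fat. Vwf, the clotting glycoprotein stored in endothelium, stood at 6.90, 5.17 and 6.44 FPKM in control and 3.64, 4.74 and 4.53 FPKM in knockout pads, without overlap (log2 difference -0.47, SE 0.15, limma adjusted p = 0.242). Sox17 stood at 5.38, 5.23 and 5.11 FPKM in control and 2.95, 4.51 and 3.88 FPKM in knockout pads, also without overlap (log2 difference -0.44, SE 0.15, limma adjusted p = 0.276). Together with Acta2 these were the 3 members lower without overlap in inguinal fat, where 17.3% of all genes tested were. Plvap stood at 52.9, 40.9 and 51.4 FPKM against 33.5, 33.7 and 44.5 FPKM, with M12 above the control M7 (log2 difference -0.38, SE 0.15, limma adjusted p = 0.335).

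Lyve1, a hyaluronan receptor of lymphatic endothelium that some tissue macrophages also carry, stood at 17.3, 7.73 and 14.0 FPKM in control and 8.21, 3.72 and 7.19 FPKM in knockout inguinal pads. M9 was lowest, and the knockout M5 lay above the control M7 (log2 difference -0.97, SE 0.38, limma adjusted p = 0.324). B cell genes summed to 76.1 FPKM in M9 and 40.9 FPKM in M7, the lowest Lyve1 pads of their genotypes. In the other inguinal pads they summed to 327 to 611 FPKM. With the B cell list as a covariate Lyve1 was the 1 member called (-0.96, limma adjusted p = 0.0166), against 4.25% of all genes. The part of lymphoid tissue in the Lyve1 levels was not tested. In gonadal fat the values were 29.6, 27.4 and 30.8 and 23.5, 29.1 and 19.6 FPKM, with overlap (log2 difference -0.29, SE 0.15, limma adjusted p = 0.652). Macrophage genes also had lower levels in knockout inguinal fat: 15 such genes summed to 695 to 1495 FPKM in control and 344 to 622 FPKM in knockout pads, without overlap, and 11 of the 15 had an unadjusted p under 0.05. With the mean level of that list as a covariate, chosen after seeing the data, the Lyve1 difference was 0.26 (limma adjusted p = 0.626) and that of Plvap -0.04 (adjusted p = 0.937). Since the list did not overlap between genotypes, such a fit cannot well separate the list from the genotype, and no conclusion is drawn. Of the other lymphatic members, Flt4 stood at 2.16, 1.45 and 1.59 FPKM in control and 1.30, 2.05 and 2.31 FPKM in knockout inguinal pads (log2 difference 0.08, SE 0.22, limma adjusted p = 0.915), and Prox1 was under 0.5 FPKM in every inguinal pad and was not tested there.

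In gonadal fat the contractile genes of smooth muscle had the largest knockout differences among the members; in inguinal fat Acta2 had the largest, followed by Lyve1 and Cspg4. Acta2, smooth muscle actin, stood at 122, 62.0 and 56.2 FPKM in M6, M7 and M10 and at 39.0, 29.3 and 43.2 FPKM in M5, M9 and M12 in gonadal fat. All 3 knockout pads lay below all 3 control pads (log2 difference -1.03, SE 0.32, limma adjusted p = 0.488). In inguinal fat Acta2 stood at 82.6, 31.3 and 19.0 FPKM in control and 9.04, 13.0 and 17.0 FPKM in knockout pads, again without overlap although M12 came close to M10 (log2 difference -1.51, SE 0.54, limma adjusted p = 0.286). Mean levels in knockout fat were 0.464 times the control mean in gonadal and 0.293 times in inguinal pads. M6 was the highest pad in both depots. Without M6 the log2 differences were -0.68 and -0.93, and DESeq2 on rebuilt reads, with all mice, called Acta2 in both pads (adjusted p = 0.0439 and 0.0207), edgeR in neither (0.50 and 0.284). Acta2 was the 1 member that DESeq2 called in inguinal fat (4.85% of all genes), and edgeR called 0 there (0.0147%). With the macrophage list as a covariate the inguinal difference of Acta2 was -0.57, in a fit that cannot well separate list from genotype.

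Tagln, the actin-binding protein transgelin, followed Acta2 in gonadal fat, with 112, 50.3 and 51.6 FPKM in control and 32.1, 31.7 and 43.7 FPKM in knockout pads, without overlap (log2 difference -0.90, SE 0.34, limma adjusted p = 0.549, and a log2 difference of -0.52 without M6). Its inguinal values, 34.3, 18.2 and 22 and 13.5, 13.1 and 20.8 FPKM, overlapped (log2 difference -0.62, SE 0.28, limma adjusted p = 0.381). Des, desmin, the intermediate filament of muscle, was the third member lower in all gonadal knockout pads, at 17.6, 15.8 and 19.5 FPKM against 36.1, 23.2 and 20.2 FPKM in controls (log2 difference -0.53, SE 0.22, limma adjusted p = 0.576). Those 3, all mural, were the only ones of the 34 members tested that were lower without overlap in gonadal fat, against 7.54% of all genes. Of the mural genes alone they were 3 of 10 in gonadal fat. In inguinal fat the mural count was 1 of 9, against 17.3% of all genes. Skeletal muscle also makes desmin, and in inguinal fat Des stood at 27.2, 22.2 and 13.6 FPKM in control and 11.2, 16.2 and 11.8 FPKM in knockout pads (log2 difference -0.62, SE 0.28, limma adjusted p = 0.368).

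Further genes of the contractile apparatus followed the individual pad. Myh11, smooth muscle myosin heavy chain, stood at 34.5, 2.12 and 3.69 FPKM in the gonadal pads of M6, M7 and M10 and at 1.61, 2.99 and 8.44 FPKM in those of M5, M9 and M12. Cnn1, calponin, stood at 29.2, 0.968 and 0.645 and 0.186, 0.216 and 5.87 FPKM. M6 was far above every other gonadal pad for both, and M12, a knockout, was next. Lmod1, a smooth muscle leiomodin, was also highest in M6 (3.34, 0.546 and 0.60 FPKM in M6, M7 and M10, 0.30, 0.554 and 0.793 FPKM in M5, M9 and M12). Myocd, the myocardin coactivator that drives these genes, was at most 0.381 FPKM in any pad, that of M6, and was not tested. Inguinal Myh11 showed no such spread, at 3.62, 3.04 and 2.66 FPKM in control and 2.28, 2.87 and 3.46 FPKM in knockout pads.

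Gonadal M6 was the highest pad for 7 of 10 mural members and for 21 of 39 further mural markers tested, against 21.3% of all genes. Actg2, the actin of visceral smooth muscle, stood at 43.9, 3.74 and 2.56 FPKM in M6, M7 and M10 and at 0.165, 0.544 and 224 FPKM in M5, M9 and M12, so that M12 and M6 were again the top pads in the other order. Both pads held male tract genes; so did M10, where Cnn1 was 0.645 FPKM and Actg2 2.56 FPKM. In the 3 pads without male tract genes, Acta2 stood at 62.0 FPKM in the control M7 and at 39.0 and 29.3 FPKM in the knockouts M5 and M9; no test was run on these 3. With the level of the male tract list as a covariate, the log2 differences of Acta2 and Tagln in gonadal fat were -1.03 (limma adjusted p = 0.485) and -0.91 (adjusted p = 0.520).

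**Figure D2:**
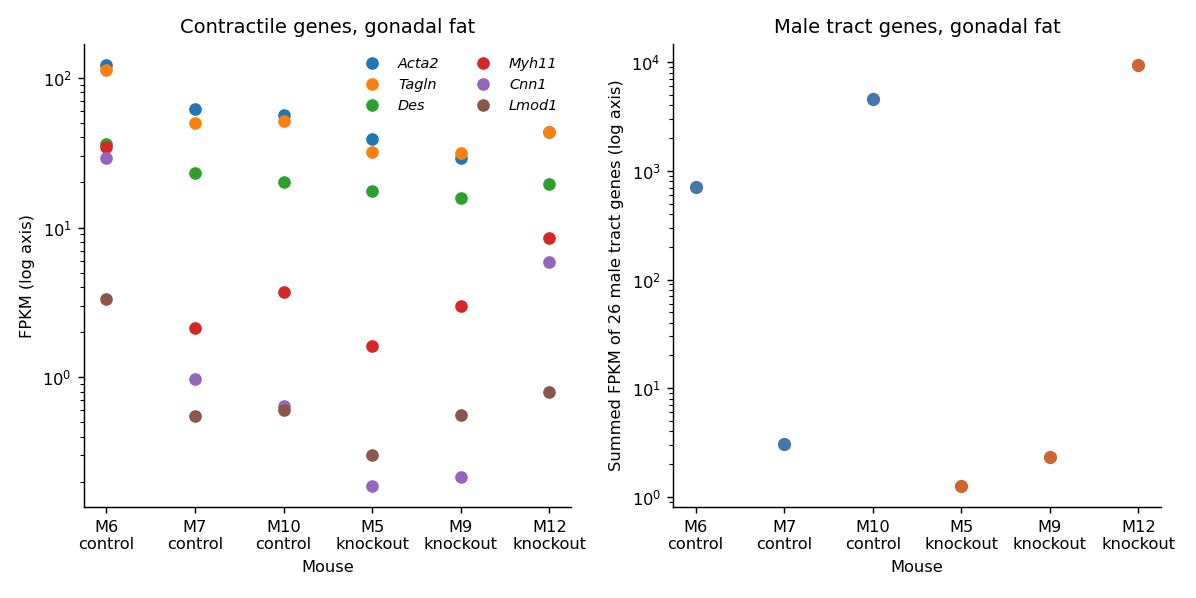
Left, FPKM (log axis) of 6 smooth muscle genes in the gonadal pad of each mouse; right, summed FPKM (log axis) of 26 male tract genes in the same pads. Myh11 and Cnn1 peak in M6 (34.5 and 29.2 FPKM) and come next in M12, while male tract genes are highest in M12 and M10 (9403 and 4571 FPKM).

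No pericyte gene was lower without overlap in knockout fat. Rgs5, a regulator of G protein signalling that marks pericytes, stood at 31.0, 17.4 and 38.5 FPKM in control and 18.5, 42.8 and 32.4 FPKM in knockout gonadal pads and at 56.8, 63.6 and 57.2 and 45.7, 83.4 and 64.9 FPKM in inguinal pads (log2 difference 0.10, SE 0.40, limma adjusted p = 0.974, in gonadal fat). Values overlapped in both depots, and M5 and M7 were the low gonadal pads, as for Cdh5. Kcnj8, a pericyte potassium channel subunit, and Notch3, the Notch receptor of mural cells, had inguinal and gonadal log2 differences between -0.11 and 0.08. Cspg4, the NG2 proteoglycan, was the exception: it stood at 7.07, 15.8 and 10.3 FPKM in control and 15.6, 17.7 and 17.7 FPKM in knockout inguinal pads, the knockout M5 just below the control M7 (log2 difference 0.67, SE 0.27, limma adjusted p = 0.334). In gonadal fat it stood at 3.95, 3.81 and 3.20 and 3.84, 5.30 and 5.23 FPKM (log2 difference 0.34, SE 0.15, limma adjusted p = 0.599). Its inguinal difference was -0.17 with the macrophage list as a covariate (limma adjusted p = 0.702) and 0.40 without M6. That list did not overlap between genotypes there, so the covariate fit cannot well separate list from genotype.

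Of the growth factors, Vegfa separated the genotypes in both depots, with all knockout pads above all control pads, though only narrowly in inguinal fat. Vegfa, the main ligand of Kdr, stood at 32.4, 37.8 and 42.2 FPKM in control and 46.4, 53.5 and 50.3 FPKM in knockout gonadal pads (log2 difference 0.42, SE 0.12, limma adjusted p = 0.456). In inguinal fat it stood at 57.2, 69.6 and 66.0 and 71.6, 70.2 and 70.2 FPKM. The separation between M7 and the lowest knockout pad was under 1 FPKM (log2 difference 0.14, SE 0.09, limma adjusted p = 0.523). Single libraries overlapped there, a library of the control M7 holding 71.8 FPKM and a library of the knockout M9 69.6 FPKM. It was the 1 member higher without overlap in each depot, against 6.79% of all genes in gonadal and 5.28% in inguinal fat. Adipocytes are a major source of VEGF-A in fat. The 10 adipocyte genes, led by Fabp4, summed to 7211 to 7891 FPKM in control and 9563 to 14045 FPKM in knockout gonadal pads, without overlap; in inguinal pads they summed to 16460 to 27928 and 20356 to 24701 FPKM. With the adipocyte list as a covariate the gonadal Vegfa difference was 0.45 (limma adjusted p = 0.637). That list did not overlap between genotypes in gonadal fat, so this fit cannot well separate list from genotype.

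None of the other 5 ligands reached an unadjusted p of 0.05 between genotypes with limma in either pad, and 0 of 6 passed the adjusted threshold. Vegfb, a ligand of Flt1, had a gonadal log2 difference of 0.30 ± 0.22 (SE), with M9 highest at 73.0 FPKM and M7 lowest at 40.1 FPKM. Pdgfb, the PDGF-B chain, stood at 25.2, 37.0 and 34.0 FPKM in control and 28.7, 27.0 and 21.4 FPKM in knockout gonadal pads (log2 difference -0.31, SE 0.18, limma adjusted p = 0.708). Vegfc, the ligand of Flt4, spread within both genotypes in gonadal fat, from 10.9 FPKM in M12 to 22.4 FPKM in M5.

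**Figure D3:**
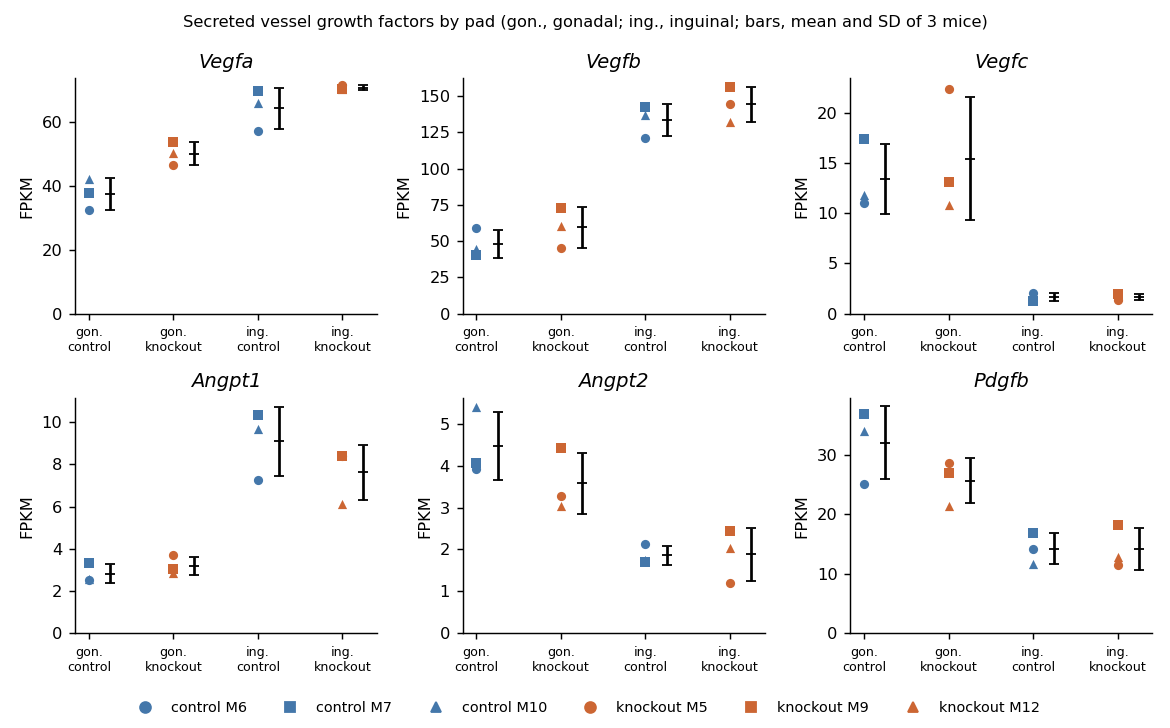
FPKM of the 6 growth factors in gonadal (gon.) and inguinal (ing.) pads; points are mice, and black bars the mean and SD of 3 mice. Vegfc, Angpt2 and Pdgfb are higher in gonadal pads and Vegfa, Vegfb and Angpt1 in inguinal pads of both genotypes. Control and knockout pads separate only for Vegfa, and only narrowly in inguinal fat.

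The knockout effect was compared between the depots by an interaction over all 12 pads. It called 0 of 34 members and 0 of 14577 genes (0%) with limma and 0 genes with edgeR; 725 genes (4.97%) had an unadjusted p under 0.05, and DESeq2 called 16 genes (0.11%) and 0 members. With libraries as replicates it called 265 genes (1.82%) and 0 members. The smallest member p was that of Vegfa (gonadal minus inguinal effect 0.28 ± 0.15 (SE), unadjusted p = 0.0927, limma adjusted p = 1.0). The authors' deposited tables list 1808 gonadal and 2220 inguinal genes as changed, 5.13% and 6.29% of all genes in the expression table. They hold 5 and 6 of the 35 members. The 2 percentages are over all 35275 genes, of which only 14851 and 13621 passed the filter on low values here. Of the 35 members, 34 and 32 passed it, so the percentages are not a like background for the members. For gonadal fat, the authors' deposited table gives log2 fold changes of 0.43 for Vegfa, 0.38 for Cspg4, -0.51 for Des, -0.80 for Tagln and -0.91 for Acta2. For inguinal fat, the authors' deposited table gives 0.59 for Cspg4, -0.24 for Plvap, -0.37 for Vwf, -0.46 for Tagln, -0.75 for Lyve1 and -1.01 for Acta2. With each of the 6 libraries of a group counted as a replicate, limma called 3 members in gonadal fat (7.58% of all genes) and 6 in inguinal fat (16.1%).

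**Figure D4:**
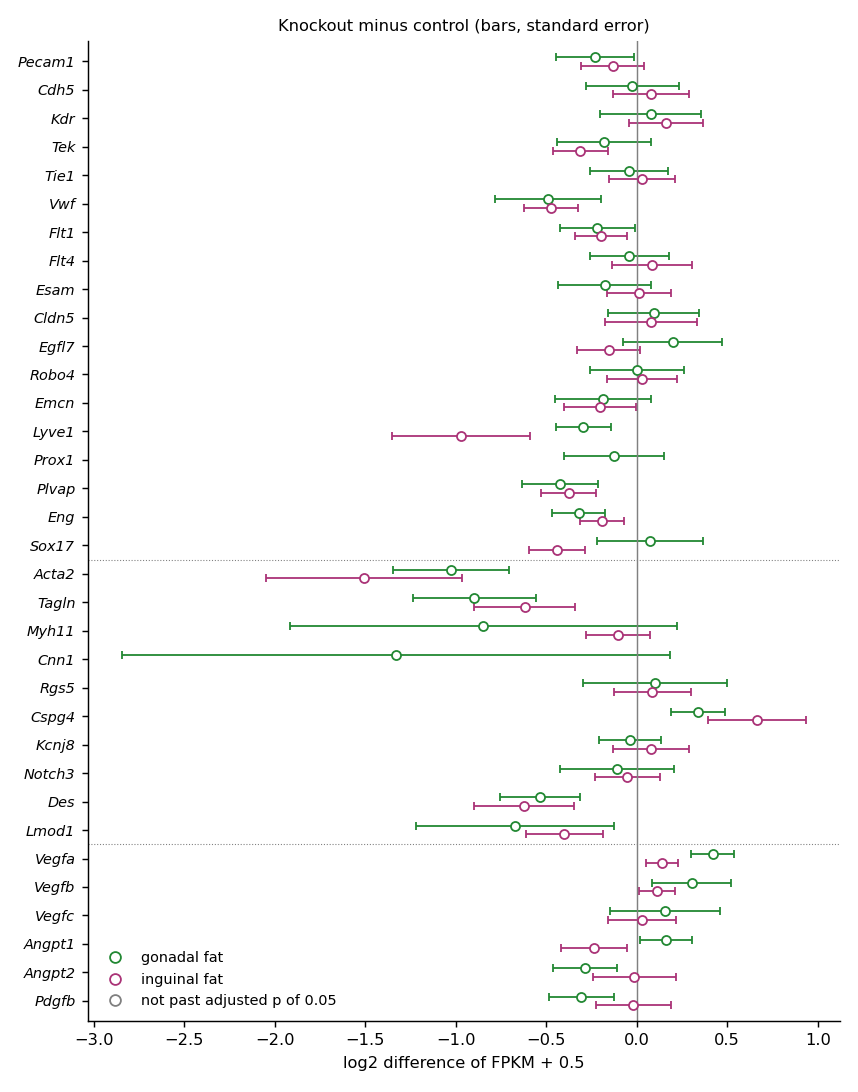
Knockout minus control log2 difference of FPKM + 0.5 for each tested member in gonadal and inguinal fat; bars are standard errors, and dotted lines part the endothelial, mural and growth factor genes. All points are open (none past the limma adjusted p of 0.05); in gonadal fat the contractile genes lie farthest left, and in inguinal fat Acta2 and then Lyve1.

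Lists of related genes gave no called gene between genotypes either. In gonadal fat, 0 of 39 further endothelial markers, 0 of 39 further mural markers and 0 of 70 other angiogenic and Notch pathway genes were called by limma, and 1, 7 and 8 of them had an unadjusted p under 0.05, all lower in knockout fat, against 8.69% of all genes in either direction. Their medians were -0.16, -0.24 and -0.15, beside -0.02 over all genes. In inguinal fat the counts at an unadjusted p under 0.05 were 4 of 37, 5 of 38 and 15 of 67, all lower but 1, against 14.9% of all genes, of which 1576 of 2024 were lower. Medians were -0.14, -0.20 and -0.17 beside -0.10.

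The 2 thrombospondins, secreted inhibitors of vessel growth, had the largest differences in those lists. Thbs1 stood at 57.2, 23.1 and 44.8 FPKM in control and 16.8, 9.76 and 8.78 FPKM in knockout gonadal pads, and at 72.2, 7.61 and 26.9 and 1.24, 1.23 and 1.57 FPKM in inguinal pads. No knockout pad reached the lowest control pad of its depot (log2 difference -1.74 ± 0.39 and -3.78 ± 0.75 (SE), limma adjusted p = 0.421 and 0.149). Thbs2 stood at 60.6, 11 and 28.3 FPKM in control and 3.17, 2.99 and 2.66 FPKM in knockout gonadal pads (log2 difference -2.99, SE 0.58, limma adjusted p = 0.421). M6 was highest for both genes in both depots, as it was for Acta2. Other genes with the smallest p in gonadal fat were Pde5a, a cyclic GMP phosphodiesterase of smooth muscle (-0.77 ± 0.18, SE), Cald1 (-0.38 ± 0.12), Vtn (-0.45 ± 0.13), Ldb3 (-0.56 ± 0.18), Notch2 (-0.36 ± 0.08), Tgfbr2, a TGF-beta receptor (-0.45 ± 0.09), and the endothelial Selp (-0.36 ± 0.13), Stab1 (-0.35 ± 0.15), Nos3 (0.52 ± 0.26) and Pdpn (-0.40 ± 0.21). In inguinal fat they were Id3, an inhibitor of differentiation downstream of BMP signals (-0.72 ± 0.10, SE), Efnb1 (-0.45 ± 0.09), Fgf10 (-0.59 ± 0.12), Myl9, the light chain of smooth muscle myosin (-0.82 ± 0.19), Synpo2 (-1.03 ± 0.28), Ldb3 (-0.99 ± 0.33), Steap4 (-0.48 ± 0.19) and the endothelial Cd34 (-0.53 ± 0.11), Ackr1 (-0.47 ± 0.13), Stab1 (-0.43 ± 0.13) and Pdpn (-0.60 ± 0.23). Their limma adjusted p ran from 0.421 to 0.675 in gonadal and from 0.111 to 0.324 in inguinal fat. Progenitor and fibroblast genes (12 listed) summed to 1206 to 1919 FPKM in knockout and 1777 to 2232 FPKM in control gonadal pads, and to 939 to 1151 and 1322 to 1720 FPKM in inguinal pads; red blood cell genes (8 listed) summed to 1616 to 4192 FPKM in knockout and 4238 to 13639 FPKM in control gonadal pads, and to 2304 to 2565 and 3068 to 10560 FPKM in inguinal pads, without overlap in either and with M6 highest in both. The part of these cells in the differences above was not tested.

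Many more genes differed between the pads than between the genotypes. The main depot fits took the pads of a mouse as independent, and the mouse as a block pairs them. In control mice limma called 15 of 34 members between gonadal and inguinal fat, 8 higher and 7 lower in gonadal fat, against 41.4% of 14505 genes (26.9% higher and 14.5% lower), so the members' share was close to the background. In knockout mice it called 14 of 34, 9 higher and 5 lower, against 47.8% of 14593 genes (35.1% higher and 12.7% lower). The median over all genes was 0.18 in control and 0.27 in knockout mice on the FPKM scale and 0.03 and 0.06 with edgeR's scaling, so values near those medians carry no direction. With edgeR the members called were 8 higher and 10 lower in control mice and 5 higher and 7 lower in knockout mice, and all genes 3152 higher and 2841 lower (41.3% called), and 3204 and 2903 (41.8%). DESeq2 called 19 and 16 members (46.8% and 48.6% of all genes), the mouse as a block gave 15 and 20 (35.1% and 43.6%), and libraries as replicates 22 and 22 (62.7% and 67%). Of the members called in control and in knockout mice, 12 of the 15 and 12 of the 14 were the same genes: Flt4, Lyve1, Prox1, Tagln, Vegfc, Angpt2 and Pdgfb, higher in gonadal fat, and Rgs5, Cspg4, Vegfa, Vegfb and Angpt1, higher in inguinal fat. None of the called members changed direction under any alternative run. Without M10 the members called in control mice fell from 15 to 4, and without M5 those in knockout mice from 14 to 9.

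Vegfc had the largest depot difference of the members. It stood at 11, 17.5 and 11.9 FPKM in the gonadal and 2.06, 1.29 and 1.63 FPKM in the inguinal pads of M6, M7 and M10 (log2 difference 2.68 ± 0.22 (SE), limma adjusted p = 6.48e-04). In M5, M9 and M12 the gonadal pads held 22.4, 13.1 and 10.9 FPKM and the inguinal pads 1.36, 1.94 and 1.77 FPKM (log2 difference 2.81, SE 0.28, limma adjusted p = 8.54e-04). The lowest gonadal pad lay above the highest inguinal pad in both genotypes, and the mean was 8.10 times the inguinal mean in control and 9.13 times in knockout mice. Its receptor Flt4 went with it: 6.74, 9.47 and 10.9 FPKM in gonadal and 2.16, 1.45 and 1.59 FPKM in inguinal pads of control mice (log2 difference 2.08, SE 0.21, limma adjusted p = 0.00117), and 1.96 in knockout mice (adjusted p = 0.00132).

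The lymphatic transcription factor Prox1 was also higher in gonadal fat. It stood at 1.23, 1.85 and 2.38 FPKM in gonadal and 0.281, 0.0305 and 0.174 FPKM in inguinal pads of control mice (log2 difference 1.80, SE 0.26, limma adjusted p = 0.00339). Lyve1 had a log2 difference of 1.21 ± 0.28 (SE) in control mice (adjusted p = 0.0160) and 1.88 ± 0.30 in knockout mice (adjusted p = 0.00406). The control calls of Prox1 and Lyve1 were lost without M10. Of the further markers, Mmrn1, a lymphatic multimerin, stood at 6.98, 10.5 and 12.3 FPKM in gonadal and 0.515, 0.241 and 0.401 FPKM in inguinal control pads (log2 difference 3.53, SE 0.24, limma adjusted p = 4.72e-04). Reln, reelin, differed by 1.47 ± 0.23 (adjusted p = 0.00403), Ccbe1, which helps to activate VEGF-C, by 2.74 ± 0.19 (adjusted p = 5.10e-04), Stab1 by 1.67 ± 0.15 (adjusted p = 7.97e-04) and Pdpn, podoplanin, by 3.75 ± 0.25 (adjusted p = 4.44e-04). Podoplanin is also made by mesothelium and Stab1 and Lyve1 by macrophages, and both cell types' genes were higher in gonadal fat: 15 macrophage genes summed to 8972 to 13783 FPKM in gonadal and 695 to 1495 FPKM in inguinal control pads, and 10 mesothelial genes to 227 to 388 FPKM and 3.46 to 6.95 FPKM. Their part in the lymphatic gene differences was not tested. Mmrn1, Reln, Stab1 and Pdpn were named for the smallest p among the further endothelial markers. Of the 39 tested in control mice, 19 were above 0 and 20 below. Ccl21a, a chemokine of that list, stood at 117 FPKM in the gonadal and 90.4 FPKM in the inguinal pad of M5. In M12 the order was the other way, at 132 and 163 FPKM.

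The VEGF receptors Kdr and Flt1 had lower levels in gonadal fat. Kdr, the main signalling receptor for VEGF-A, stood at 14.3, 9.06 and 13.4 FPKM in gonadal and 18.6, 22.5 and 16.3 FPKM in inguinal control pads. Flt1, its decoy partner, stood at 9.17, 6.14 and 8.66 and 11.1, 12.8 and 11.5 FPKM. Both were lower in every gonadal than every inguinal control pad (Kdr: log2 difference -0.64, limma adjusted p = 0.0461; Flt1: -0.55, adjusted p = 0.0365), and neither call held with the mouse as a block (adjusted p = 0.101 and 0.0783). Both control calls were also lost without M6, M7 or M10 and without the filter on low values. In knockout mice the differences were -0.72 and -0.57, with limma adjusted p of 0.0799 and 0.0537 and, with the block, 0.00847 and 0.0100. Cdh5, Tek and Robo4 had log2 differences of -0.41, -0.56 and -0.46 in control mice and were below 0 in all 6 mice, without passing the limma threshold in either genotype. All 3 passed with edgeR in control mice (adjusted p = 0.0488, 0.0312 and 0.0481) and with the mouse as a block in knockout mice (0.00980, 0.0215 and 0.0133). Pecam1, Cldn5, Emcn and Esam, general markers of the lining, had differences between -0.23 and 0.06 and did not pass in either genotype; Pecam1 was lower in gonadal fat in all 6 mice. The receptor Tie1 (0.16 in control and 0.09 in knockout mice) and the TGF-beta co-receptor Eng (0.20 and 0.07) had values above 0 that did not pass, and were higher in gonadal fat in 5 and 4 of 6 mice. Vwf passed in knockout mice only (log2 difference 0.56, SE 0.12, limma adjusted p = 0.0108; edgeR adjusted p = 0.0710); it was higher in gonadal fat in all 6 mice, with 0.57 ± 0.30 (SE) in controls, and the difference between genotypes did not pass the interaction test.

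Of the mural genes, Cspg4 and Rgs5 were called higher in inguinal fat and Tagln higher in gonadal fat in both genotypes. Cspg4 stood at 3.95, 3.81 and 3.20 FPKM in gonadal and 7.07, 15.8 and 10.3 FPKM in inguinal control pads (log2 difference -1.41, SE 0.28, limma adjusted p = 0.00904), and at 3.84, 5.30 and 5.23 and 15.6, 17.7 and 17.7 FPKM in knockout pads (log2 difference -1.74, SE 0.14, limma adjusted p = 4.85e-04). Rgs5 was 0.490 times its inguinal mean in gonadal control fat (log2 difference -1.09, SE 0.28, limma adjusted p = 0.0231) and 0.483 times in knockout fat (log2 difference -1.08, SE 0.36, limma adjusted p = 0.0489). The Rgs5 call was lost without M6 or M10 in control mice, and without M5, M9 or M12 or without the filter on low values in knockout mice (leave-one-out adjusted p 0.0276 to 0.0831 and 0.0513 to 0.144). The control call of Cspg4 was also lost without M10. Kcnj8 differed in the opposite direction, by 0.64 ± 0.16 in control mice (limma adjusted p = 0.0212). That call was lost without M6 or M10 and was not made by the main limma fit in knockout mice. Kcnj8 was higher in gonadal fat in all 6 mice, while Notch3 was higher in 3 of 6. Cspg4 is also made by other precursor cells, and Schwann cell genes (8 listed) were higher in inguinal pads, at 148 to 233 FPKM against 99.0 to 111 FPKM in control mice. Tagln was higher in gonadal fat in all 6 mice (log2 difference 1.45, SE 0.38, limma adjusted p = 0.0237 in controls, 1.17 in knockouts; the call was lost without M7 or M10 and without M5 or M9), and Acta2 in knockout mice (log2 difference 1.51, SE 0.25, limma adjusted p = 0.00493), with 1.02 ± 0.57 in controls (adjusted p = 0.193, and 0.0307 with the mouse as a block). Myh11 and Cnn1 had differences of 1.02 ± 0.93 and 1.80 ± 1.22 in controls, which did not pass. Within mice these were 3.08 and 4.86 in M6 and between -0.44 and 0.41 in M7 and M10.

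The ligands all differed between depots. Vegfb stood at 58.6, 40.1 and 44.7 FPKM in gonadal and 121, 143 and 137 FPKM in inguinal control pads (log2 difference -1.49, SE 0.16, limma adjusted p = 0.00135), and Angpt1, the stabilising ligand of Tek, at 2.53, 3.35 and 2.58 and 7.24, 10.3 and 9.67 FPKM (log2 difference -1.52, SE 0.17, limma adjusted p = 0.00162). Vegfa was lower in gonadal fat by -0.77 in control mice (adjusted p = 0.00538) and -0.50 in knockout mice (adjusted p = 0.00326). Angpt2, which opposes Angpt1 at Tek, was higher in gonadal fat, at 3.92, 4.07 and 5.40 against 2.13, 1.71 and 1.74 FPKM in controls (log2 difference 1.07, SE 0.16, limma adjusted p = 0.00369). Pdgfb was likewise higher, at 25.2, 37.0 and 34.0 against 14.1, 17.0 and 11.7 FPKM (log2 difference 1.14, SE 0.19, limma adjusted p = 0.00527). Angpt1 thus exceeded Angpt2 in every inguinal pad, while Angpt2 exceeded Angpt1 in 5 of 6 gonadal pads. In control mice the Vegfa, Angpt2 and Pdgfb calls were lost without M10. In knockout mice the limma calls of Angpt2 and Pdgfb (adjusted p = 0.0392 and 0.0150) were not made by edgeR (0.133 and 0.0763) or by DESeq2. Both were also lost without M5. The Angpt2 call was lost without M9 or M12 as well (leave-one-out limma adjusted p 0.0804 to 0.147), and without the filter on low values. Beside the higher Vegfa and Vegfb of inguinal fat stood higher adipocyte genes, at 16460 to 27928 FPKM against 7211 to 7891 FPKM in gonadal control pads, and their part in the ligand differences was not tested.

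**Figure D5:**
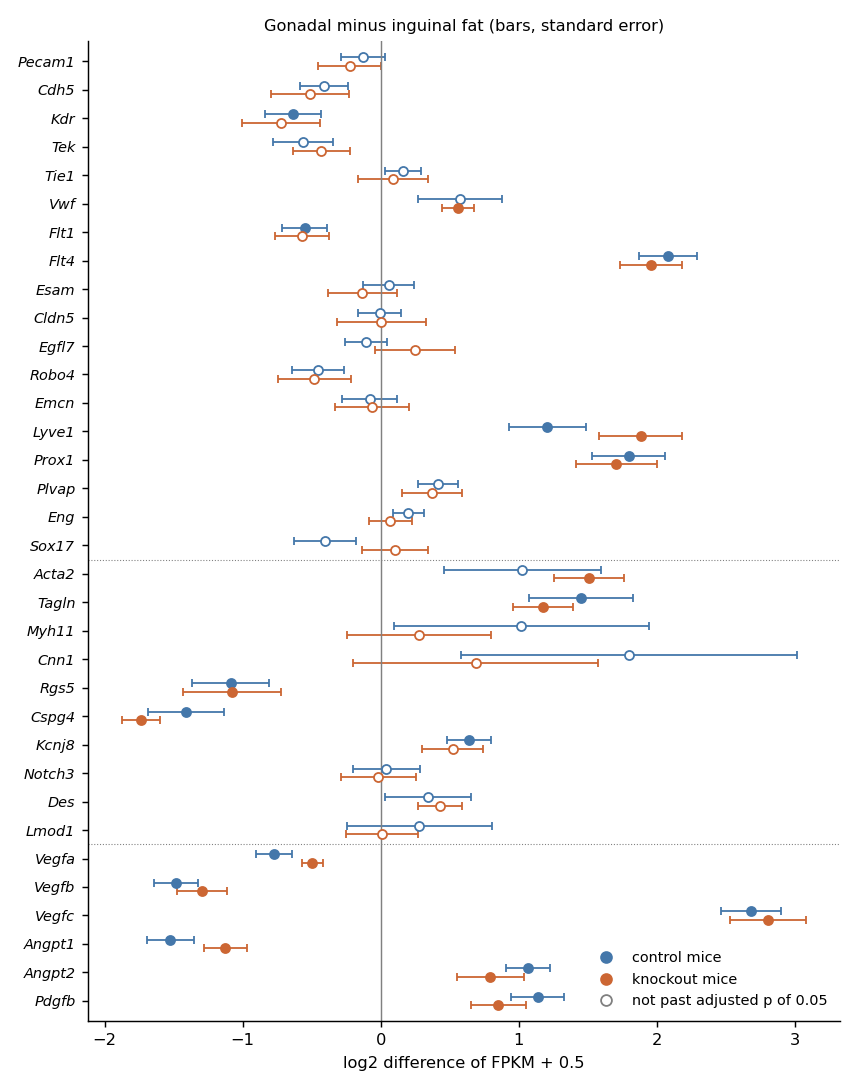
Gonadal minus inguinal log2 difference of FPKM + 0.5 for each tested member in control and knockout mice; bars are standard errors, filled points pass the limma adjusted p of 0.05, and dotted lines part the endothelial, mural and growth factor genes. Vegfc, Flt4, Lyve1 and Prox1 lie to the right and Cspg4, Vegfb, Angpt1 and Rgs5 to the left in both genotypes; the median of all genes tested was 0.18 and 0.27.

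In the wider lists, control mice gave 10 higher and 8 lower calls among 39 further endothelial markers, 8 and 4 among 38 further mural markers and 27 and 10 among 70 angiogenic and Notch pathway genes, against 26.9% higher and 14.5% lower over all genes. With edgeR they were 9 and 10, 8 and 5, and 27 and 15. In knockout mice the counts were 8 and 4 of 39, 12 and 5 of 40 and 31 and 8 of 70, against 35.1% and 12.7%. With edgeR they were 7 and 6, 6 and 6, and 26 and 12, so the balance of directions in the endothelial and mural lists changed with the scaling. Among the mural genes with the smallest p in control mice were Gucy1a3, a subunit of the nitric oxide receptor guanylyl cyclase (1.97 ± 0.16, SE), Foxs1 (2.16 ± 0.19) and Aoc3 (-1.58 ± 0.21), the last also abundant in adipocytes. In knockout mice Flna, the actin crosslinker filamin A, was among them (1.85 ± 0.18). Of the pathway genes, Tgfbr1 (1.80 ± 0.13) and the guidance cues Slit2 (2.07 ± 0.17) and Sema3a (2.28 ± 0.22) were higher in gonadal fat of control mice, and Pdgfra, the receptor of mesenchymal progenitors, in that of knockout mice (2.29 ± 0.18).

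Some values carry a limit from the gene models. In the mm10 coordinates of the deposited table, Acta2 spans chr19:34241090-34255336, Tagln chr9:45929628-45936058, Cspg4 chr9:56865104-56899870, Lyve1 chr7:110850607-110862953, Flt4 chr11:49609263-49652739, Vegfa chr17:46016993-46032377 and Vegfc chr8:54077532-54186454. All 35 members overlap the gene of the same identifier in GENCODE M21, and 9 overlap another gene. Egfl7 lies opposite Agpat2, an enzyme of triglyceride synthesis at up to 1097 FPKM, and Eng overlaps Ak1 (up to 71.9 FPKM). Plvap, Tagln and Angpt2 lie opposite Gtpbp3, Pcsk7 and Mcph1, each at under 10 FPKM. The sources used here do not say whether counting used strand, and reads of such pairs cannot be told apart.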

How the data were processed

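RNA of gonadal and inguinal fat of 6 mice was, per the labels' protocols, extracted with a Qiagen RNeasy kit and made into libraries with a NEBNext Ultra kit. CASAVA, STAR and mm10 are named in the submitters' processing notes; the sources used here name no counting tool or strand setting. Per the file headers, the authors deposited an FPKM table of 35275 genes by 24 libraries. Their 2 comparison tables, per the file headers, hold read counts, group means (a signal scaled by size factors), log2 fold changes and p-values for genes listed as changed only; 24 FPKM columns of these tables were not used. Columns were assigned to groups and animals by name, since the labels' replicate numbers do not occur in the names; the reading of the letters (f control, z knockout, e gonadal, s inguinal) was inferred. The 2 libraries of a pad (r = 0.991 to 0.996 across genes, 12 pairs; 0.897 to 0.985 for 48 pairs from other mice of a group) were averaged.

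Log2(FPKM + 0.5) was tested, two-sided and 3 mice against 3, with limma 3.58.1 (trend; R 4.3.3) for genes averaging 0.5 FPKM or more in the fit, with Benjamini-Hochberg adjustment over all genes tested and a threshold of 0.05; log2 differences understate changes of low genes. P-values measure the spread between these mice. FPKM times gene length and library total came to whole numbers in 100% of values (tolerance 0.001), and these rebuilt counts went into edgeR's quasi-likelihood test (4.0.16) and DESeq2 (1.42.0), which called 0 and 310 genes in gonadal and 2 and 661 genes in inguinal fat. The limma fit was tested on simulated data. Same-numbered libraries come from one animal, so the mouse pairs the pads; deviations from group means correlated between the pads of a mouse at r = -0.13 (M12) to 0.18 (M5) over 13201 genes.

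The members, gene lists and motifs were chosen with earlier results of these data known, and the relaxed CArG box and GC box were added after the strict motifs gave no match. All but 1 of 326 list symbols were matched, 8 of them by gene identifier. Genes are named if they are members, Foxo1, or up to 4 per related list with the smallest p in a comparison. Actg2 and Ccl21a were chosen after their values were seen. Alternatives were the pseudocount, the filter, the count tools, libraries as replicates, each mouse left out, the mouse as a block and marker lists as covariates. Overlaps with other genes come from GENCODE M21 and promoters from RefSeq.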

Additional observations from a re-analysis of the deposited data

How the results depend on the processing

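Between genotypes, the count of genes called by limma was 0 in gonadal fat, 310 with DESeq2 and 1125 with each library as a replicate, and leaving out a mouse gave 0 to 1 (1 without M10). Members called were 1 with DESeq2 and 3 with libraries as replicates. In inguinal fat the 3 genes became 661 with DESeq2, 2189 with libraries as replicates, and 24, 0, 579 and 0 with adipocyte, skeletal muscle, B cell and macrophage genes as a covariate, and leaving out a mouse gave 0 to 78 (78 without M7). Members called there were 1 with DESeq2, 6 with libraries as replicates and 1 with the B cell covariate (Lyve1, -0.96). With the macrophage covariate, added after seeing the data, Lyve1 (0.26) and Cspg4 (-0.17) reversed in inguinal fat. That list did not overlap between genotypes there, so this fit cannot well separate list from genotype, and the cause was not tested. The interaction called 16 genes with DESeq2 and 265 with libraries as replicates.

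Between depots, 6010 genes in control mice became 9100 with libraries as replicates and 1534 to 5257 without a mouse, and 15 members became 4 to 12. In knockout mice 6971 genes became 3047 to 5911 without a mouse, and 14 members became 9 to 13, or 22 with libraries as replicates. With the mouse as a replicate block, which pairs the pads, 15 and 20 members and 5092 and 6365 genes were called, and the interaction called 0. In control mice the block lost Kdr and Flt1 and added Plvap (adjusted p = 0.0323) and Acta2; in knockout mice it added Cdh5, Kdr, Tek, Flt1, Robo4 and Kcnj8 (0.0344). Called in every alternative were Angpt1, Flt4, Vegfb and Vegfc in control mice, and these with Acta2, Cspg4, Lyve1 and Vegfa in knockout mice. A fit without the 3 gonadal pads holding male tract genes was not run, since it leaves 3 pads. With 3 mice a group, a difference has to exceed the spread between mice by a wide margin to pass, and genes under 0.5 FPKM were not tested.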
